A study of Homo sapiens with 8 samples.

Results

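The desmosome genes described here are 10 genes defined by their known place in the junction: DSP, JUP, PKP1, PKP2, PKP3, DSG2, DSG3, DSC2, DSC3 and PERP. They were found by gene symbol, not by measured values, although the list was chosen with earlier results of these data known. They account for 16 of the 48175 transcripts in the table and for 10 of its 25166 named genes. All 10 had a usable value in every library and were among the 6173 genes tested. The measurements are RNA levels in HMLE cells, an established line of immortalized human mammary epithelial cells. Every library came from cells carrying a lentiviral short hairpin RNA and selected with puromycin at 0.5 µg/mL. The 4 groups were SOX4-shRNA cells given TGF-β for 16 h, SOX4-shRNA cells left untreated, scrambled-shRNA cells given TGF-β for 16 h, and scrambled-shRNA cells left untreated, with 2 libraries each. A single hairpin against SOX4 was used, so effects of that hairpin on other transcripts cannot be told apart from effects of SOX4. Nothing in the labels gives separate cultures for the 2 libraries within a group, and the p-values here cover no more than the spread seen between such libraries, possibly a technical one.

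Desmosomes are patch-like junctions that tie the keratin filaments of neighbouring epithelial cells together. Desmogleins and desmocollins, both cadherins, cross the membrane and bind their counterparts on the next cell, plakoglobin and the plakophilins bind the cadherin tails, and desmoplakin joins this plaque to the keratins. TGF-β is a cytokine known for driving epithelial cells towards a mesenchymal state, in which such junctions are commonly taken apart, and SOX4 is a transcription factor that TGF-β is known to induce in mammary epithelial cells.

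Levels are in FPKM, sequenced fragments scaled by transcript length and library size, summed over the transcripts of a gene. Reads in the genes whose values were restored to whole reads totalled 6.41 to 8.49 M (mega) per library. The desmosome genes held between 1096 reads (DSC2) and 30241 reads (DSP) in a library. SOX4, the targeted gene, measured 2.37 and 1.88 FPKM in TGF-β-treated SOX4-shRNA cells against 18.7 and 17.6 FPKM in TGF-β-treated scrambled-shRNA cells, while it stood at 0.923 and 1.02 FPKM in untreated SOX4-shRNA cells against 8.74 and 8.04 FPKM in untreated scrambled-shRNA cells. The cells had the keratins of basal epithelium, with KRT5 at 2886 to 3945 FPKM and KRT14 at 1446 to 2875 FPKM. Of the luminal markers, KRT19 reached at most 0.376 FPKM, and KRT8, KRT18 and MUC1 had no usable value. The leukocyte gene PTPRC reached at most 0.0167 FPKM, while CD68, the other leukocyte marker, stood at 3.36 to 9.94 FPKM. The endothelial gene PECAM1 reached at most 0.168 FPKM. CDH5, also endothelial, was at 0 in every library, where damaged cells also count as 0. In bulk samples such as these, fewer cells of a type and less RNA per cell cannot be told apart.

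Per length, JUP and DSP were the most abundant of the desmosome transcripts. Over the 8 libraries the mean level was highest for these, followed by PERP and PKP1, then PKP3, DSG2 and DSC3, and lowest for DSG3, PKP2 and DSC2. The ranges of JUP and DSP overlapped, and JUP was the higher of the pair in 6 of 8 libraries. PKP3 and DSG2 were the closest neighbours in this order, which held in 5 of 8 libraries. DSC3 stood above DSG3, and PKP2 above DSC2, with no overlap between their ranges.

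**Figure D1:**
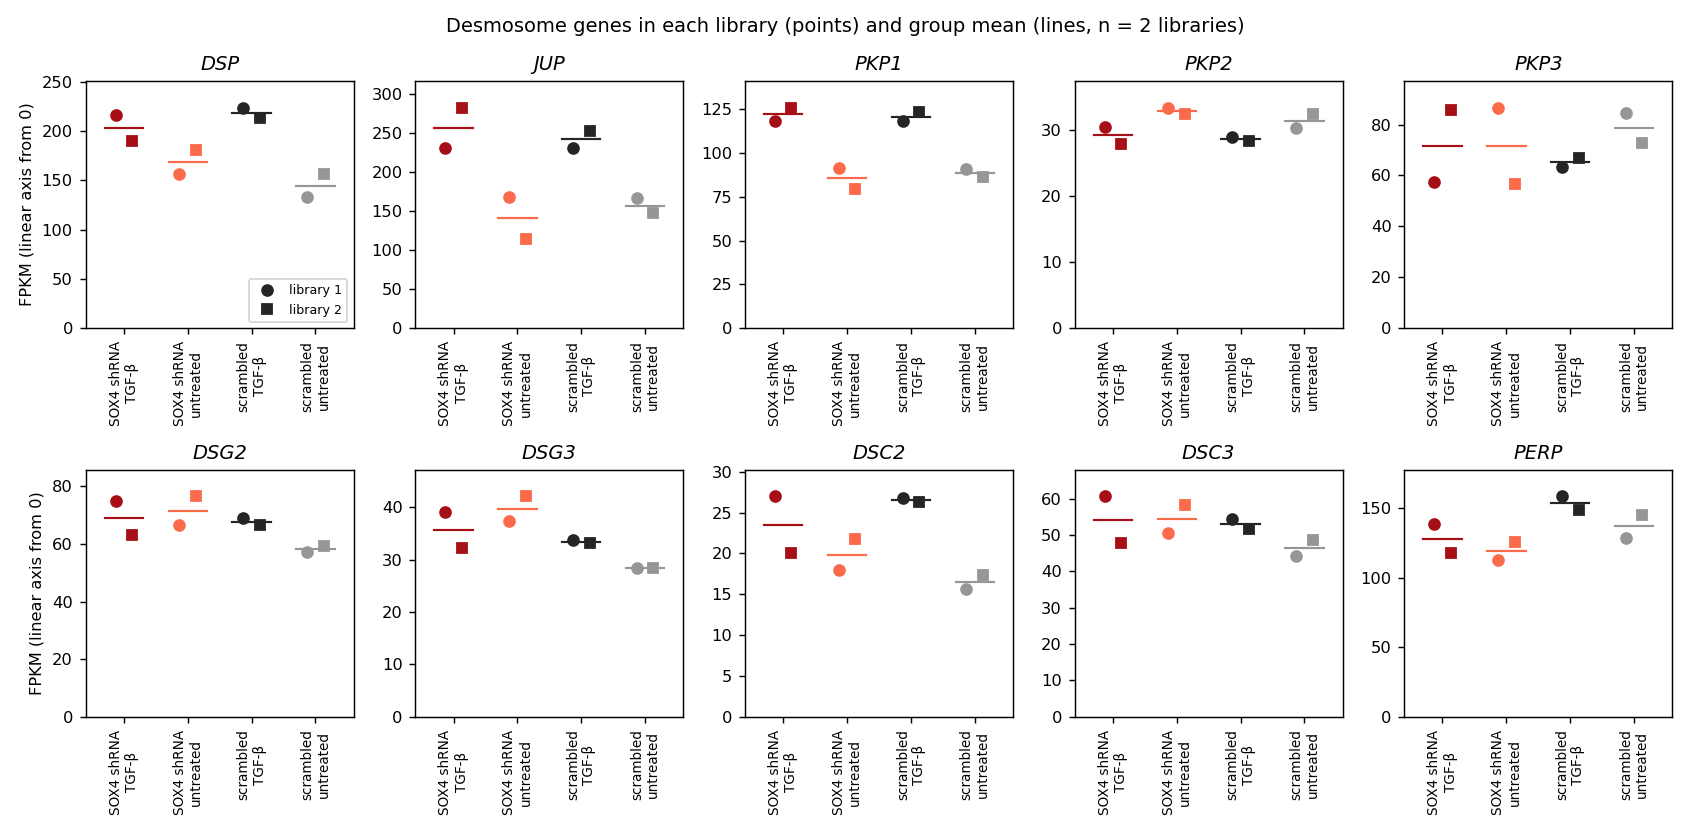
Level of each desmosome gene in FPKM (vertical axes, starting at 0) in the 8 libraries, with a panel per gene and the groups along the horizontal axis. Circles are library 1, squares are library 2 and lines are the means of 2 libraries. PKP2 and PKP3 were lower in both TGF-β-treated scrambled-shRNA libraries than in both untreated ones, and the other 8 genes were higher. Within SOX4-shRNA cells, PKP3 ranged from 56.6 to 86.7 FPKM.

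The first comparison asks what TGF-β did to the junction's transcripts in cells with the scrambled hairpin. In scrambled-shRNA cells, 3 of the 10 desmosome genes rose with TGF-β and none fell at an adjusted p below 0.05 (limma, Benjamini-Hochberg over all genes tested). Of all genes tested, 7.5% were called in this comparison, 5.1% as higher and 2.4% as lower. The genes that rose were DSP, PKP1 and DSC2. The median log2 change was 0.22 over the 10 genes and -0.03 over all genes tested. With 1 library left out, the log2 change ran from 0.48 to 0.71 for DSP, 0.41 to 0.48 for PKP1 and 0.59 to 0.73 for DSC2. The calls were lost with any 1 of the 4 scrambled-shRNA libraries left out, where a compared group held 1 library. Without a TGF-β-treated one, calls over all genes fell as well.

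DSP encodes desmoplakin, the link between plaque and keratin filaments, and lies at chr6:7541571-7586947 on the plus strand of GRCh37 with 24 exons. It measured 224 and 213 FPKM in TGF-β-treated scrambled-shRNA cells, against 133 and 156 FPKM in untreated scrambled-shRNA cells. Both treated libraries lay above both untreated ones, and the group means were 218 ± 7.63 FPKM with TGF-β and 144 ± 16.4 FPKM without (SD, n = 2 each). The difference was 0.60 ± 0.13 on the log2 scale (SE; 1.51-fold; limma adjusted p = 0.0293). The level of DSP rests on a restored decimal mark whose transcript lengths were not unique by the search alone, although every lower reading gave no solution.

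PKP1 encodes plakophilin 1, an armadillo-repeat protein of the plaque, at chr1:201252580-201302121 on the plus strand. It measured 118 and 123 FPKM in TGF-β-treated scrambled-shRNA cells, against 90.9 and 86.5 FPKM in untreated ones. The groups did not overlap, and the log2 change was 0.44 ± 0.11 (limma adjusted p = 0.0460). JUP encodes plakoglobin, an armadillo protein that is shared with adherens junctions, at chr17:39910856-39943183 on the minus strand. It measured 231 and 254 FPKM with TGF-β, against 168 and 147 FPKM without. Its log2 change of 0.62 ± 0.18 was as large as that of DSP and the groups did not overlap, but it missed the threshold (limma adjusted p = 0.0827).

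DSC2 encodes desmocollin 2, one of the desmosomal cadherins, at chr18:28638806-28682485 on the minus strand, in a cluster that also holds DSC3, DSG3 and DSG2. It measured 26.8 and 26.3 FPKM in TGF-β-treated scrambled-shRNA cells, against 15.6 and 17.3 FPKM in untreated ones. It had the largest log2 change of the 10 genes in this comparison, 0.66 ± 0.16 (1.58-fold; limma adjusted p = 0.0460). The other cadherins were closer to no difference. DSG2 measured 69.0 and 66.5 FPKM with TGF-β against 57.2 and 59.2 FPKM without, DSG3 measured 33.7 and 33.2 FPKM against 28.4 and 28.4 FPKM, and DSC3 measured 54.5 and 51.7 FPKM against 44.3 and 48.7 FPKM. Each of these log2 changes was between 0.19 and 0.23, with an adjusted p of 0.3082 or more in limma.

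PERP encodes a tetraspan membrane protein needed for stable desmosomes in mouse skin. It measured 159 and 149 FPKM with TGF-β, against 129 and 145 FPKM without, a log2 change of 0.17 ± 0.12 (limma adjusted p = 0.4410). PKP2 and PKP3, the remaining plakophilins, had values below zero. PKP2 measured 29.0 and 28.3 FPKM with TGF-β against 30.2 and 32.4 FPKM without, and PKP3 measured 63.3 and 67.0 FPKM against 84.7 and 72.8 FPKM. Neither passed the test, with log2 changes of -0.12 ± 0.10 for PKP2 and -0.27 ± 0.23 for PKP3. In all, 8 of the 10 genes were higher and 2 were lower in both treated libraries than in both untreated ones, beside 29.2% and 34.7% of all genes tested.

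The same treatment was then compared in SOX4-shRNA cells. Here 2 of the 10 genes rose, JUP and PKP1, and none fell, while 7.89% of all genes tested were called, 5.65% as higher and 2.24% as lower. JUP measured 231 and 283 FPKM in TGF-β-treated SOX4-shRNA cells, against 168 and 115 FPKM in untreated SOX4-shRNA cells. The log2 change was 0.88 ± 0.18 (1.84-fold; limma adjusted p = 0.0280). PKP1 measured 118 and 126 FPKM with TGF-β, against 91.6 and 79.5 FPKM without, a log2 change of 0.51 ± 0.11 (limma adjusted p = 0.0272). PKP1 was thus the single gene of the 10 called in both comparisons. With 1 library left out, the log2 change ran from 0.61 to 1.15 for JUP and from 0.41 to 0.61 for PKP1. The calls were lost without any 1 scrambled-shRNA library, untreated SOX4-shRNA library 2 or TGF-β-treated SOX4-shRNA library 2. Calls over all genes fell in the same fits.

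DSP and DSC2 did not pass the test in SOX4-shRNA cells. DSP measured 216 and 190.1 FPKM with TGF-β, against 157 and 181 FPKM without, a log2 change of 0.27 ± 0.13 (95% interval -0.02 to 0.56). DSC2 measured 27.0 and 20.04 FPKM with TGF-β, against 17.9 and 21.8 FPKM without, so its groups overlapped. Its log2 change was 0.23 ± 0.16 (95% interval -0.14 to 0.59). PKP3 measured 57.3 and 85.8 FPKM with TGF-β against 86.7 and 56.6 FPKM without, and the spread within each group exceeded the difference between them. The other genes, DSG2, DSG3, DSC3, PKP2 and PERP, had log2 changes between -0.17 and 0.10. Of the 10 genes, 3 were higher and 1 was lower in both treated libraries than in both untreated ones, beside 20.2% and 24.0% of all genes tested.

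**Figure D2:**
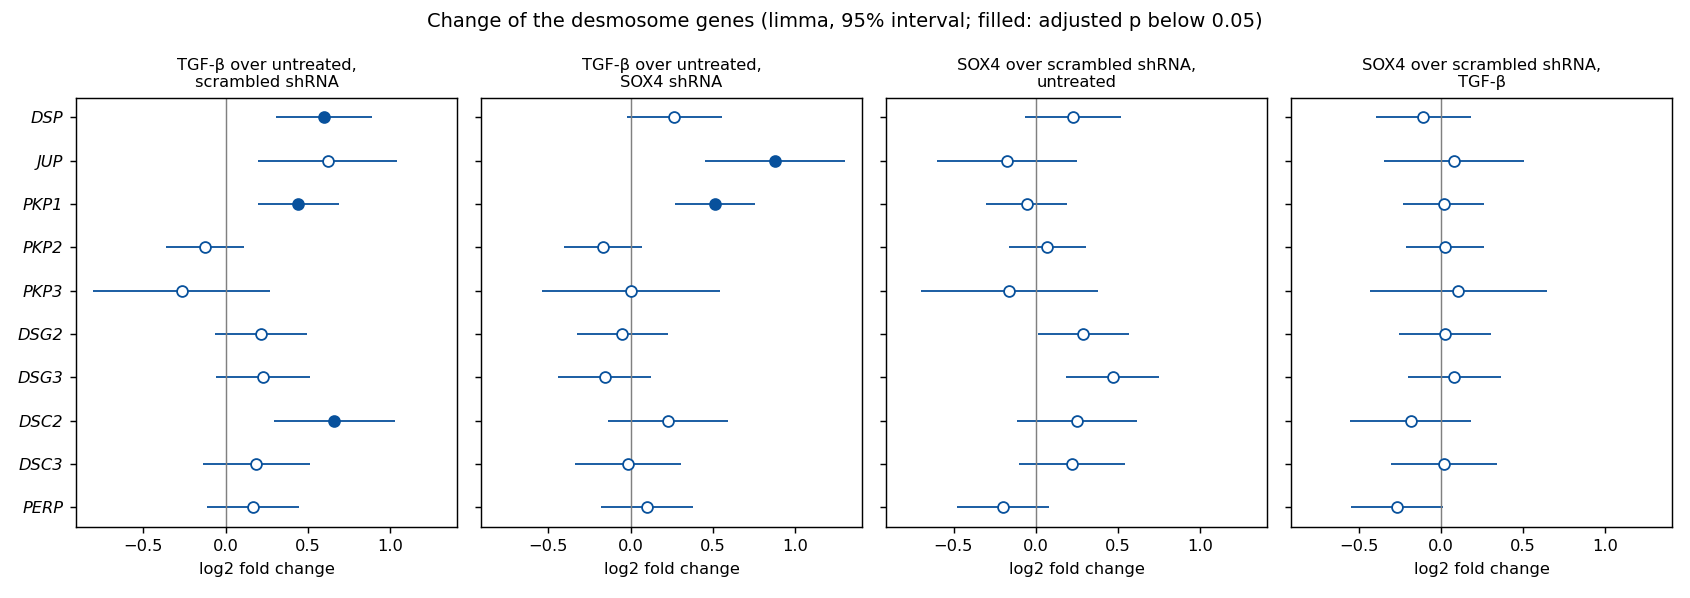
Log2 change of each desmosome gene (horizontal axis) in 4 comparisons, with points at the limma estimate and bars for the 95% interval. Filled points have an adjusted p below 0.05. Filled points appear for DSP, PKP1 and DSC2 under TGF-β in scrambled-shRNA cells and for JUP and PKP1 under TGF-β in SOX4-shRNA cells.

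The interaction tested directly whether the hairpin altered the TGF-β response. None of the 10 genes passed (limma adjusted p = 0.9943 for each), and none had an unadjusted p below 0.05. Of all genes tested, 0.0162% were called, which is 1 gene, and 160 had an unadjusted p below 0.05. The estimates for the cadherin DSC2 (-0.43, 95% interval -0.95 to 0.09), for DSG3 (-0.39, -0.79 to 0.02) and for DSP (-0.33, -0.74 to 0.08) were below zero. So were those for DSG2 (-0.27), DSC3 (-0.20), PERP (-0.07) and PKP2 (-0.05). Those for PKP3 (0.27, 95% interval -0.49 to 1.03), JUP (0.26, -0.34 to 0.86) and PKP1 (0.07, -0.28 to 0.42) were above zero. A gene called under one hairpin and not under the other was therefore not shown to respond differently.

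The hairpin itself was compared without TGF-β. None of the 10 genes was called in untreated SOX4-shRNA cells against untreated scrambled-shRNA cells in limma, beside 4.8% of all genes tested (1.34% higher, 3.45% lower), and 2 of the 10 had an unadjusted p below 0.05. DSG3, the desmoglein of basal layers in stratified epithelia, measured 37.4 and 42.1 FPKM in SOX4-shRNA cells, against 28.4 and 28.4 FPKM in scrambled-shRNA cells. Its groups did not overlap and its log2 change was 0.47 ± 0.12, short of the threshold (limma adjusted p = 0.0776). With TGF-β-treated SOX4-shRNA library 1 or 2 left out of the fit it was called (limma adjusted p = 0.0459 and 0.0453). DSG2 measured 66.5 and 76.6 FPKM against 57.2 and 59.2 FPKM, a log2 change of 0.29 ± 0.12 (limma adjusted p = 0.2397). Without overlap between groups, 6 of the 10 genes were higher and 1 was lower with the hairpin, beside 24.1% and 22.5% of all genes tested. The 6 were DSP, PKP2, DSG2, DSG3, DSC2 and DSC3, all with a share of G and C bases (GC content) under 50%. PERP, the 1 lower, was under 50% as well. Libraries of a group differed with GC content, as given below. With TGF-β in both arms, the share of all genes called was 4.02% (1.18% higher, 2.83% lower), and none of the 10 desmosome genes was called or had an unadjusted p below 0.05. PERP had the lowest value, at 138 and 118 FPKM in SOX4-shRNA cells against 159 and 149 FPKM in scrambled-shRNA cells (-0.26 ± 0.12; limma adjusted p = 0.3241). It was the single gene of the 10 lower without overlap, and none was higher without overlap, beside 23.0% and 23.2% of all genes tested.

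Several desmosome genes are made as alternative transcripts, and the desmocollins differ by a single small exon. The longer transcripts of DSC2 and DSC3 hold an extra exon that ends the protein early and gives the short "b" tail, while its absence gives the long "a" tail. The exons lie at chr18:28648265-28648310 for DSC2 and chr18:28574420-28574462 for DSC3, both on the minus strand of GRCh37. Their coding parts are printed 5′ to 3′ with the stop codon in capitals, because the same 21 bases open both.
DSC2: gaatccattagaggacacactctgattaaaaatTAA
DSC3: gaatccattagaggacacactggtTAA

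The split of a gene between its transcripts is an estimate by the authors' software, and only the sum over a gene's transcripts corresponds to whole reads. The a form measured 22.2 and 21.4 FPKM in TGF-β-treated scrambled-shRNA cells against 9.65 and 11.7 FPKM in untreated ones, and 23.4 and 15.5 FPKM in TGF-β-treated SOX4-shRNA cells against 12.8 and 15.9 FPKM in untreated ones. The b form measured 4.65 and 4.95 FPKM against 5.96 and 5.62 FPKM in scrambled-shRNA cells, and 3.58 and 4.58 FPKM against 5.09 and 5.83 FPKM in SOX4-shRNA cells. The a form thus made up 82.6% and 81.2% of DSC2 with TGF-β against 61.8% and 67.5% without in scrambled-shRNA cells. Fitted as a feature of its own, the a form had a log2 change of 0.97 ± 0.21 in scrambled-shRNA cells and missed the threshold (limma adjusted p = 0.079).

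Other desmosome genes also had alternative transcripts. DSC3b made up 36.3% to 42.0% of DSC3 in TGF-β-treated and 31.5% to 45.4% in untreated scrambled-shRNA cells. Desmoplakin II, which lacks 1797 bases of the long exon at chr6:7579508-7581802 and so has a shorter rod, made up 19.5% to 30.3% of DSP over the 8 libraries. The PKP1 b form, which holds a 63-base exon at chr1:201288944-201289006 on the plus strand, was listed near 0 in every library. That exon is printed because the form without it supplied the PKP1 signal.
PKP1: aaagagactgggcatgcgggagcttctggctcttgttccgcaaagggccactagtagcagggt

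**Figure D3:**
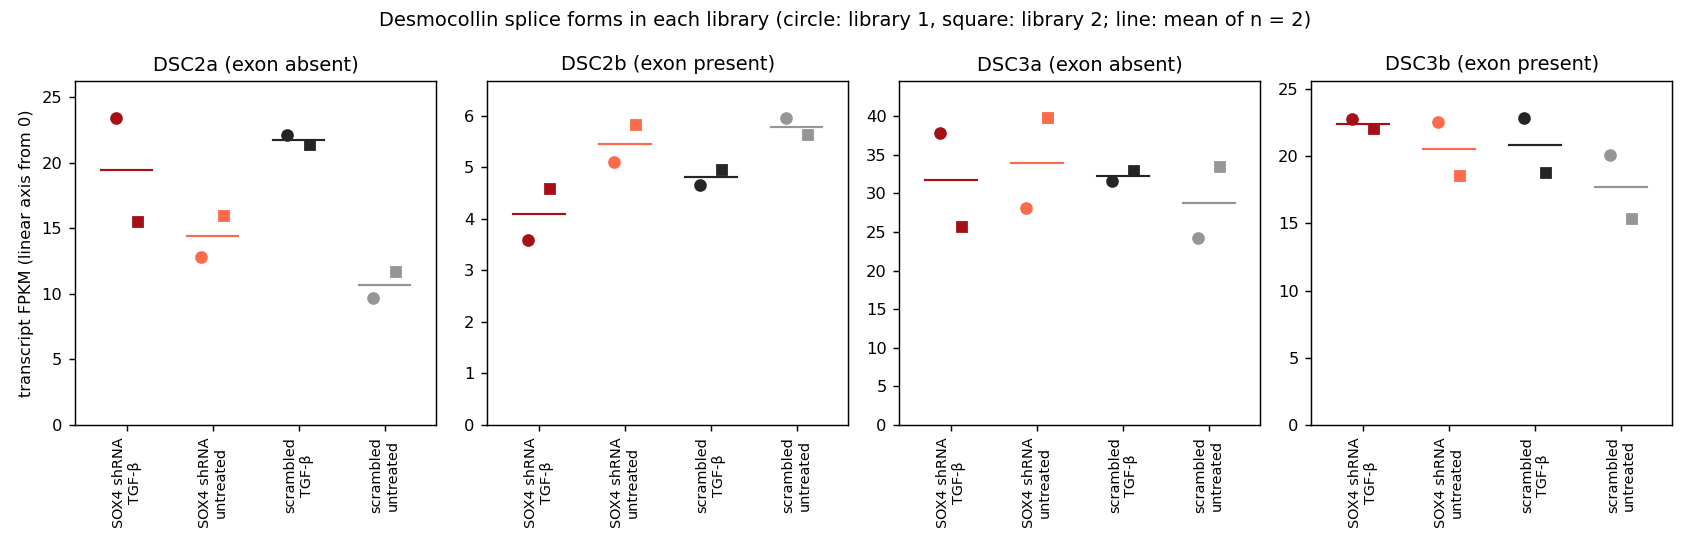
Level in FPKM (vertical axes, starting at 0) of the a and b transcripts of DSC2 and DSC3 in the 8 libraries. Circles are library 1, squares are library 2 and lines are the means of 2 libraries. DSC2a reached 22.2 and 21.4 FPKM in TGF-β-treated scrambled-shRNA cells against 9.65 and 11.7 FPKM in untreated ones, and DSC2b stayed between 3.58 and 5.96 FPKM.

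The promoters of the desmosome genes were searched for 6-letter motifs. CACCTG, the E-box read by the SNAIL and ZEB repressors, was searched on both strands (CAGGTG on the other strand) from 250 bases before to 50 bases after each gene start in RefSeq sequences of GRCh38.p14. The 8 desmosome genes found there had 10 promoters, and PKP2 and PKP3 had none listed. The motif was present in 4 of these 10, those of DSP, JUP, DSC2 and DSG2, and in 20.6% of 35116 promoters. ACAAAG, a core motif of SOX factors, was present in 2 of the 10, those of DSG3 and DSC2, and in 16.1% of all promoters. PKP1, called with TGF-β under both hairpins, had no CACCTG match, and DSG2, with a match, was not called. One match each is printed for DSP, DSC2 and JUP, the genes with a match that were called with TGF-β under either hairpin, with that match in capitals. The JUP stretch also holds a second match, in lower case, on the other strand.
DSP, chr6:7541574-7541603, plus strand: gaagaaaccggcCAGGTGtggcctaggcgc
DSC2, chr18:31102560-31102589, minus strand: tcaactttctgtCAGGTGggcctcaggcag
JUP, chr17:41786013-41786042, minus strand: cgactctggcccCACCTGccgagcaggtga
A match describes the letters in the window and is not evidence that a factor binds there.

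Among other genes of the junction and its partners, PPL was called lower with TGF-β, which none of the 10 was. PPL encodes periplakin, a plakin related to desmoplakin. It measured 20.5 and 21.5 FPKM in TGF-β-treated SOX4-shRNA cells against 39.4 and 35.1 FPKM in untreated ones, and 10.8 and 11.4 FPKM in TGF-β-treated scrambled-shRNA cells against 23.6 and 21.9 FPKM in untreated ones. It fell with TGF-β by 0.97 on the log2 scale in scrambled-shRNA cells (limma adjusted p = 0.0044) and was higher with SOX4 shRNA in untreated cells (0.69, limma adjusted p = 0.013). It was the single gene called among 4 tested of 9 listed desmosome-related genes. PNN, EVPL and PKP4 were not called, with log2 changes with TGF-β of -0.44, -0.34 and -0.02 in scrambled-shRNA cells. In SOX4-shRNA cells these changes were -0.35, -0.34 and -0.05. DSG1, DSG4, DSC1 and CDSN reached at most 0.504 FPKM.

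Of the 5 tested of 10 adherens junction genes, none was called with TGF-β in scrambled-shRNA cells and 1, the nectin NECTIN4, rose in SOX4-shRNA cells (0.50, limma adjusted p = 0.047). VCL, CDH3 and CDH1, the genes for vinculin, P-cadherin and E-cadherin, were not called in any comparison, and their log2 changes with TGF-β were 0.37, 0.20 and 0.25 in scrambled-shRNA cells. In SOX4-shRNA cells they were 0.24, 0.38 and 0.23. Of the 6 tested of 9 keratins, 1 rose and 1 fell with TGF-β in scrambled-shRNA cells, and 4 rose and 1 fell in SOX4-shRNA cells. With SOX4 shRNA, 4 keratins fell in untreated cells and 3 with TGF-β, and none rose. KRT15 fell with TGF-β by 1.71 in scrambled-shRNA and 1.37 in SOX4-shRNA cells on the log2 scale, and its log2 changes with SOX4 shRNA were -2.26 in untreated and -1.92 in TGF-β-treated cells, both called. KRT6A rose with TGF-β by 0.43 and 0.82 and fell with SOX4 shRNA by 1.25 and 0.86. KRT6B fell with SOX4 shRNA by 1.65 and 1.05, though reads of KRT6A, KRT6B and KRT16 may be shared with near-identical copies. Of the 7 tested of 12 epithelial and mesenchymal transcription factors, 1 rose with TGF-β in scrambled-shRNA cells and 3 in SOX4-shRNA cells, and 1 fell with SOX4 shRNA in untreated and in TGF-β-treated cells. SNAI2, a repressor of epithelial genes, rose by 0.89 in scrambled-shRNA cells and 1.09 in SOX4-shRNA cells. The epithelial factors OVOL1 and KLF4 rose with TGF-β in SOX4-shRNA cells by 0.86 and 0.65. TWIST1, a factor known for mesenchymal programmes, fell with SOX4 shRNA by 0.77 in untreated and 0.69 in TGF-β-treated cells. COL17A1, a hemidesmosome collagen and the single gene tested of 6 on its list, rose with TGF-β by 0.46 and 0.69 and fell by 0.64 with SOX4 shRNA in untreated cells.

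Genes of other cell states also differed between these groups. VIM, the intermediate filament protein of mesenchymal cells and the 1 of 4 mesenchymal markers tested, measured 351 and 320.3 FPKM in TGF-β-treated and 139.7 and 139.9 FPKM in untreated SOX4-shRNA cells, against 744 and 708 FPKM in TGF-β-treated and 440.2 and 440.2 FPKM in untreated scrambled-shRNA cells. COL1A2, the 1 of 5 fibroblast markers tested, rose with TGF-β by 0.60 and 0.69 and fell by 1.62 with SOX4 shRNA in untreated cells. CD68, a gene of macrophages and of lysosomes in other cells, fell by 1.07 in the same comparison, with PTPRC near 0 throughout. Of the other fibroblast markers, LUM and PDGFRA reached at most 0.105 and 0.103 FPKM, and COL1A1 and DCN had no usable value. The part of these genes in the desmosome results was not tested.

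The transcripts most like the mean profile of the desmosome genes, by Pearson's r over the 8 libraries among 3215 genes averaging at least 10 FPKM, were CDKN2B, CD9, SNX22, TES and E2F7, with r between 0.965 and 0.973. These values describe a shared pattern over libraries that also share treatment and preparation. Among the 10 genes themselves, 27 of 45 pairs had an r above 0. JUP and PKP1 (0.98) and DSP and DSC2 (0.97) were the closest pairs, and PKP3 and DSC3 the most opposed (-0.89). JUP and PKP1 have 61.5% and 56.3% GC, DSP and DSC2 47.7% and 37.9%, and PKP3 and DSC3 66.7% and 39.2%. The libraries also differed with GC content, and its part in these r values was not tested.

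The libraries of a group differed in a way that followed base composition. Over 4391 genes above 5 FPKM, the log2 difference of library 1 minus library 2 had a Pearson r with transcript GC content of -0.76 in TGF-β-treated and 0.81 in untreated SOX4-shRNA cells, and of -0.34 in TGF-β-treated and 0.65 in untreated scrambled-shRNA cells. The 7 desmosome genes with GC content under 50% were higher in library 1 in 7 of 7 cases in both TGF-β-treated groups and in 1 of 7 in both untreated groups, and JUP, PKP1 and PKP3, with 61.5%, 56.3% and 66.7% GC, went the other way in every group. The sign in a group depends on which library is numbered 1, so it does not compare treated with untreated cells. JUP, PKP1 and PKP3 were also the genes of the 10 with interaction estimates above zero. The genes higher without overlap with SOX4 shRNA in untreated cells were all under 50% GC. The part of the library pattern in these differences and in the changes with TGF-β was not tested beyond centring by GC content, an alternative chosen after seeing the data. With it, the changes with SOX4 shRNA in untreated cells were 0.36 for DSG3, 0.22 for DSP, 0.21 for DSG2, 0.12 for DSC2, 0.12 for DSC3, 0.043 for PKP2 and -0.31 for PERP. With that centring the calls were 6 of the 10 genes beside 29.2% of all genes for TGF-β in scrambled-shRNA cells, where JUP was called at 0.74 ± 0.07, and 5 beside 28.8% for TGF-β in SOX4-shRNA cells. They were 3 beside 19.5% for SOX4 shRNA in untreated cells, 1 beside 17.7% with TGF-β, and 0 beside 0.0162% for the interaction.

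**Figure D4:**
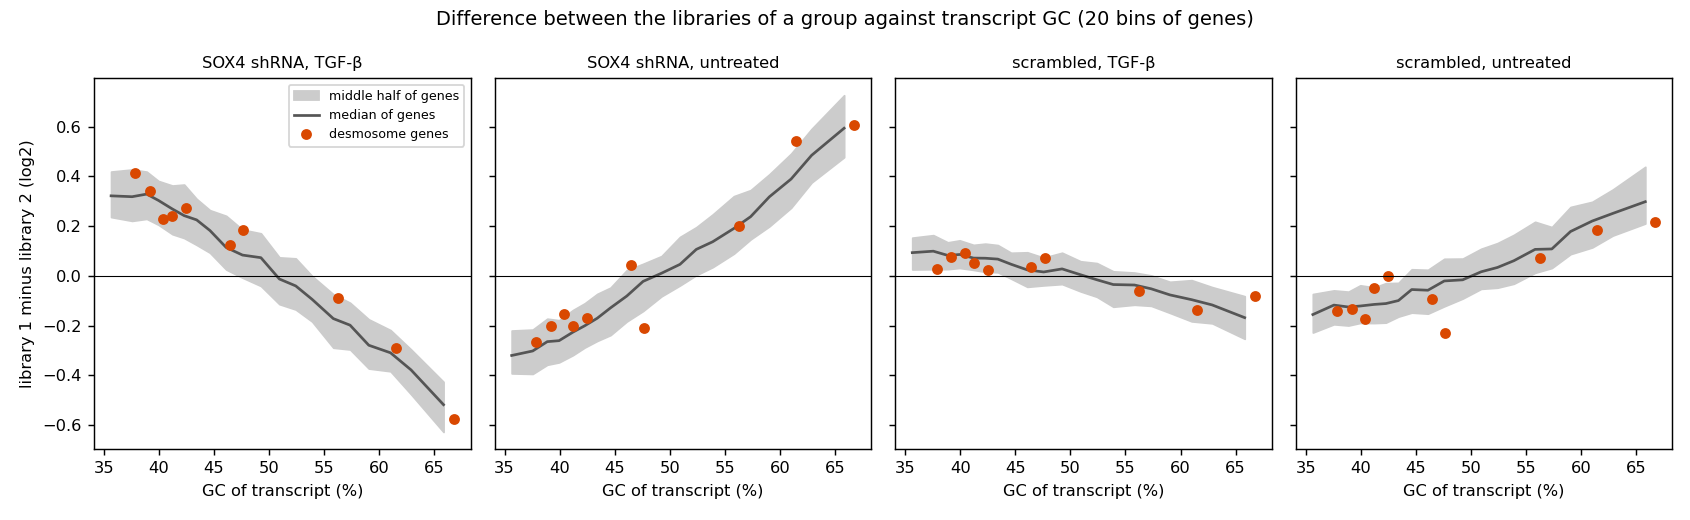
Difference of library 1 minus library 2 on the log2 scale (vertical axis) against transcript GC content in percent (horizontal axis), with a panel per group. Grey shows the median and the middle 50% of genes in 20 bins, and orange points are the desmosome genes. The slope ran downward in the TGF-β-treated groups and upward in the untreated groups. Its sign depends on which library of a group is numbered 1, and the labels tie nothing to these numbers. The signs therefore do not compare treated with untreated cells.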

How the data were processed

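RNA was sequenced from 8 libraries of HMLE cells as 75-nt single reads. One label names polyA RNA and the protocol a ribosomal-depletion kit, so the RNA fraction is unsure. The build hg19 and the tools Cuffdiff, Cufflinks 2.2.1 and TopHat2 2.0.9 are named in the submitters' processing notes. The strand setting is not given in the sources used here, so antisense partners of DSP and DSG2 cannot be told apart from them. Exons of DSC2 and PKP2 also overlap another annotated gene on the same strand, which no strand setting would separate. The deposited values of the authors were taken as FPKM per RefSeq transcript.

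In 34.1% of cells the decimal mark was lost. Marks were restored where a gene's values became whole reads (within 0.003 reads plus rounding). Transcript lengths of at least 600 nt were allowed, with at most 0.05 solutions expected by chance. Likeness between libraries also entered. For genes with 1 transcript it weighed the possible readings (probability at least 0.95), and for genes with 2 only readings with the libraries most alike were searched. This settled 4301 genes with 1 transcript and 1807 with 2. With DSP and 6413 genes that had no lost mark, 12522 genes had a usable value. Genes with more than 2 transcripts and a lost mark were left out. For DSP more solutions were expected by chance, and the reading was accepted because no lower reading gave any and because its 1797-nt length difference equals that of the annotated exon. Damaged exponent cells (13.9%) were set to 0. Symbols were matched for 97.8% of rows.

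Genes with at least 1 FPKM in at least 2 libraries (6173) were tested on log2(FPKM + 1) in limma 3.58.1 (R 4.3.3) with an intensity trend, 1 fit over all 4 groups with 4 residual degrees of freedom and Benjamini-Hochberg adjustment. Fold changes are on that scale and understate changes of low genes. Alternatives covered pseudocounts, filters, centring, blocks, transcripts and left-out libraries. The scripts were tested on simulated data. The named genes were the 10 members and, from each other list of junction, keratin and factor genes, up to 4 with the smallest p. Marker genes with a usable value were named as checks, whatever that value was. Members and lists were chosen with earlier results of these data known. Loci and exons are from GENCODE 44 lifted to GRCh37. One alternative exon is not reported here.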

Additional observations from a re-analysis of the deposited data

How the results depend on the processing

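Counts of desmosome genes called were 3, 2, 0, 0 and 0 for TGF-β in scrambled-shRNA cells, TGF-β in SOX4-shRNA cells, SOX4 shRNA untreated, SOX4 shRNA with TGF-β and the interaction. Without the filter both TGF-β counts were 0, beside 243 and 303 of 12522 genes. With only 1-transcript genes (which cover 4 of the 10) both were 0, beside 344 and 376 of 4301 genes. With transcripts as features they were 0 and 1, beside 107 and 184 of 6118 genes, each taken by its most abundant transcript. With the compared groups alone the second was 0, beside 130 of 6173 genes. The replicate block gave 0 in every comparison (beside 2.64%, 4.16%, 2.35%, 2.06% and 0.0162% of all genes). The labels tie nothing to the replicate numbers, and deviations of same-numbered libraries correlated at -0.22 within scrambled-shRNA and -0.79 within SOX4-shRNA cells, but at 0.65 between untreated groups and 0.16 between TGF-β-treated groups. Crossing the numbers, an alternative chosen after seeing the data like voom and GC centring, gave 4, 3, 2, 0 and 0 (beside 25.9%, 25.2%, 17.9%, 13.4% and 0.0162% of all genes). GC centring gave 6, 5, 3, 1 and 0, and voom called 1 gene for SOX4 shRNA untreated (beside 5.81%). Leaving out 1 library left 1 library in a group, so counts of calls are not given for those fits. The TGF-β calls in scrambled-shRNA cells were lost without any 1 of the 4 scrambled-shRNA libraries. Those in SOX4-shRNA cells were lost without any of these, without untreated SOX4-shRNA library 2 or without TGF-β-treated SOX4-shRNA library 2. None of the 5 called values changed sign, and 20 of the 45 values not called did under at least 1 alternative. On the log2 scale, GC centring gave 0.066 for DSC3, 0.037 for DSG2 and -0.046 for PKP3 with TGF-β in SOX4-shRNA cells, 0.029 for PKP1 with SOX4 shRNA untreated, -0.022 for PKP1 with SOX4 shRNA and TGF-β, and 0.070 for PERP and -0.051 for PKP1 in the interaction. For SOX4 shRNA with TGF-β, median centring gave -0.0065 for DSC3, -0.0013 for DSG2, -0.0088 for PKP1 and -0.00088 for PKP2, and transcripts gave -0.047 for DSC3 and -0.0090 for PKP2. In the interaction voom gave 0.017 for PKP2. With 1 library left out, the ranges that crossed zero were, for TGF-β in SOX4-shRNA cells, DSC3 -0.19 to 0.16, DSG2 -0.17 to 0.070, PERP -0.013 to 0.21 and PKP3 -0.30 to 0.31. For SOX4 shRNA untreated they were JUP -0.45 to 0.094, PKP1 -0.16 to 0.046 and PKP3 -0.47 to 0.14. For SOX4 shRNA with TGF-β they were DSC2 -0.39 to 0.024, DSC3 -0.15 to 0.19, DSG2 -0.097 to 0.14, DSG3 -0.054 to 0.22, JUP -0.065 to 0.23, PKP1 -0.028 to 0.061, PKP2 -0.037 to 0.086 and PKP3 -0.18 to 0.39. In the interaction they were JUP -0.013 to 0.53, PERP -0.18 to 0.048, PKP1 -0.030 to 0.17, PKP2 -0.11 to 0.015 and PKP3 -0.036 to 0.57. Over all genes, calls numbered 463, 487, 296 and 248, against 22 to 1804, 130 to 1775, 51 to 1201 and 43 to 1095 under the alternatives; GC centring moved the share called higher to 57.4%, 58.6%, 44.6% and 44.4%, against 68.0%, 71.7%, 28.0% and 29.4%. The causes were not tested. The number of libraries, 2 a group, limits the precision.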
